A study of Homo sapiens with 14 samples.

Results

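NT2 is a teratocarcinoma-derived human line whose cells can take on neural and other fates. Its cells were compared after 21 days of 2 inducers. Retinoic acid (RA) was the study's treatment toward neurons, and bone morphogenetic protein 2 (BMP2) its treatment toward muscle. The comparison rests on 4 of the 14 RNA sequencing libraries of the series, chosen by their titles: RA day 21 replicates 1 and 2, and BMP2 day 21 replicates 1 and 2. RA was made up as a 10 mM stock in DMSO and used at a final 10 µM. BMP2 was used at 30 ng/ml at first and 40 ng/ml afterwards, and which of these each library received is not recorded in the labels. Both treatments were given in DMEM with 10% serum, and total RNA was sequenced. The other 10 libraries are untreated cells at day 0 and the same treatments at days 5 and 10, with 2 libraries a group. All come from the same line. No label states that replicates are separate cultures, so p-values measure the spread between these libraries, which may be technical.

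Retinoic acid is a derivative of vitamin A that binds the nuclear receptors RARA, RARB and RARG, which sit on DNA with RXR partners. It switches on enzymes that destroy it, such as CYP26A1 and CYP26B1, and in the embryo it sets the head end of the HOX code in hindbrain and neck. BMP2 is a secreted ligand that acts through SMAD proteins, and in embryos BMP signals favour mesoderm, heart and connective tissue over neural fates. CPM is the count scaled to library size, and log2 fold changes are RA over BMP2 with their standard error. A gene was called at a Benjamini-Hochberg adjusted p under 0.05 in the quasi-likelihood test of edgeR over 19142 genes. Only called genes are said to have risen or fallen in RA. These words mean higher or lower than in BMP2 at day 21, not a change over time, unless an earlier day is named. A change of 1 on the log2 scale is a doubling.

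The 3 promoters shown here belong to a retinoid enzyme that was called (CYP26A1), a receptor that was not (RARB) and a muscle gene that was called (ACTA2), and each holds a match or near match to a sequence its regulators are known to use. CYP26A1 and RARB are textbook targets of the retinoic acid receptors, which bind paired hexamers. ACTA2 encodes smooth muscle actin, whose promoter is a textbook target of serum response factor through CArG boxes. Each run is the 250 bases before the gene's start from RefSeq on GRCh38.p14, 5′ to 3′ on the gene's strand. Those of CYP26A1 (chr10:93073643-93073892, forward strand), RARB (chr3:25428013-25428262, forward strand) and ACTA2 (chr10:88952774-88953023, reverse strand) are given. Capitals mark both hexamers of a direct repeat with 5 bases between them in CYP26A1 (bases -90 to -74 from the start, read on the opposite strand) and RARB (bases -53 to -37), and in ACTA2 a pair of boxes that differ from the CArG pattern by 1 letter (bases -121 to -112 and -71 to -62).
CYP26A1: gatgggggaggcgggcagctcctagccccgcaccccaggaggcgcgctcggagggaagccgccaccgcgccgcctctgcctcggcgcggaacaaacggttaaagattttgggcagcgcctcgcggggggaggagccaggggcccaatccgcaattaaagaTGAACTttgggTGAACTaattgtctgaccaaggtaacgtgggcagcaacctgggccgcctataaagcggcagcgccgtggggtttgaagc
RARB: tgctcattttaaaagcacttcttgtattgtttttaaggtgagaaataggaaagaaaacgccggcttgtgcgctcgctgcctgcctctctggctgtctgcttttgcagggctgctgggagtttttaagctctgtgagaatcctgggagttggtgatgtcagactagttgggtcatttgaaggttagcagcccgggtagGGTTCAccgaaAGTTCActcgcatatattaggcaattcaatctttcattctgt
ACTA2: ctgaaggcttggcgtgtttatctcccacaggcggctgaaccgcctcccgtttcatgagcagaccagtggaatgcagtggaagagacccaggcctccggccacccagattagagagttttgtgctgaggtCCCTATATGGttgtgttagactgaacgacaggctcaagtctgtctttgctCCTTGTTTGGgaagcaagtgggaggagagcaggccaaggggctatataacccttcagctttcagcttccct
The repeats were searched on both strands as any pair of 4 hexamers with 2 or 5 bases between them. These were AGGTCA together with AGTTCA, and also GGGTCA along with GGTTCA. The CArG box was searched as CC, a run of A or T, then GG, either exactly or with 1 G or C in the run. A repeat was found in 0.128% (35) of the 27305 genes with a promoter in the table, an exact CArG box in 1.44% (394) and one with 1 G or C in 8.6% (2349). In the smooth muscle list, 14 of the 19 tested genes had a promoter there, and 4 held an exact box (28.6%; ACTG2, MYLK, SMTN and SRF). These genes have 1.93 listed starts each, against 1.29 over all genes, which gives them more sequence to match. The single hexamer AGGTCA was in 14.6% (3979) of all promoters and in 2 of 14 of the retinoid list (DHRS3 and STRA6). A match is a run of letters and not a measured binding site.

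Both RA libraries were counted more deeply than both BMP2 libraries. The RA day 21 libraries held 61590693 and 69531635 counts, against 52242740 and 51915458 in the BMP2 day 21 libraries, and the series ran from 45773278 to 75754396. Replicates correlated over genes at 0.987 in RA and 0.9689 in BMP2 at day 21, and libraries of different treatments at 0.9087 to 0.9207. The BMP2 day 10 replicates correlated at 0.9093, lower than any other pair of replicates and within the range between treatments, and they enter the shared estimate of spread and the day 10 comparison. At day 21, 2308 genes were called (12.1% of those tested), 1146 higher in RA (5.99%) and 1162 lower in RA (6.07%). Of these, 413 were at least 4-fold higher and 530 at least 4-fold lower. The libraries of the treatments did not overlap for many more genes, with RA above BMP2 in 37.1% and RA below BMP2 in 33.2%, so a gap between the groups is described below but not counted as a call.

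How many genes were called depended on single libraries. Leaving out RA day 21 replicate 1 or 2 left 289 or 344 calls, and leaving out BMP2 day 21 replicate 1 or 2 left 1081 or 626, while leaving out BMP2 day 10 replicate 1 or 2, which are in neither group, gave 4229 or 4212. The split of calls depended on the fit. It was 34.5% higher in RA without BMP2 day 21 replicate 2, 42.4% without replicate 1 and 41.3% where a change of at least 2-fold was required. In limma on log2(RPKM + 1), 1886 genes were higher and 658 lower in RA (74.1% higher, against 49.7% in the counts of all libraries), where the median of all genes stood at 0.106 in place of 0.02. In each list described below, the share of members called is to be read against 5.99% higher and 6.07% lower over all genes. Ranges are over the 14 fits that leave out 1 library, in which the lowest counts were reached without a day 21 library and most of the highest without a BMP2 day 10 library. Among the genes named below, 40 of 223 share more than 50% of their span with another annotated gene, against 20.1% of all tested genes. Whether reads were counted by strand is not given in the sources used, and reads of such neighbours cannot be told apart. They are HOXA4, HOXA5, HOXB5, HOXC5, HOXB6, HOXB8, HOXA7 and HOXB9, the retinoid genes CYP26A1, ALDH1A3, CRABP2 and RDH10, and ACTA2, ACTC1, OGN, ASPN, VTN, TIMP3, THBS1, LOXL2, SOX2, SOX11, SNAP25, L1CAM, EFNB2, CHRNB4, ID2, JAG2, IGF2, CD248, PDGFRA, RGS5, PAX8, CCND2, CDKN2B, XPC, SUCNR1, FREM3, LEFTY1 and HOXB-AS2. These are bulk libraries, in which fewer cells of a type and less RNA per cell cannot be told apart.

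**Figure D1:**
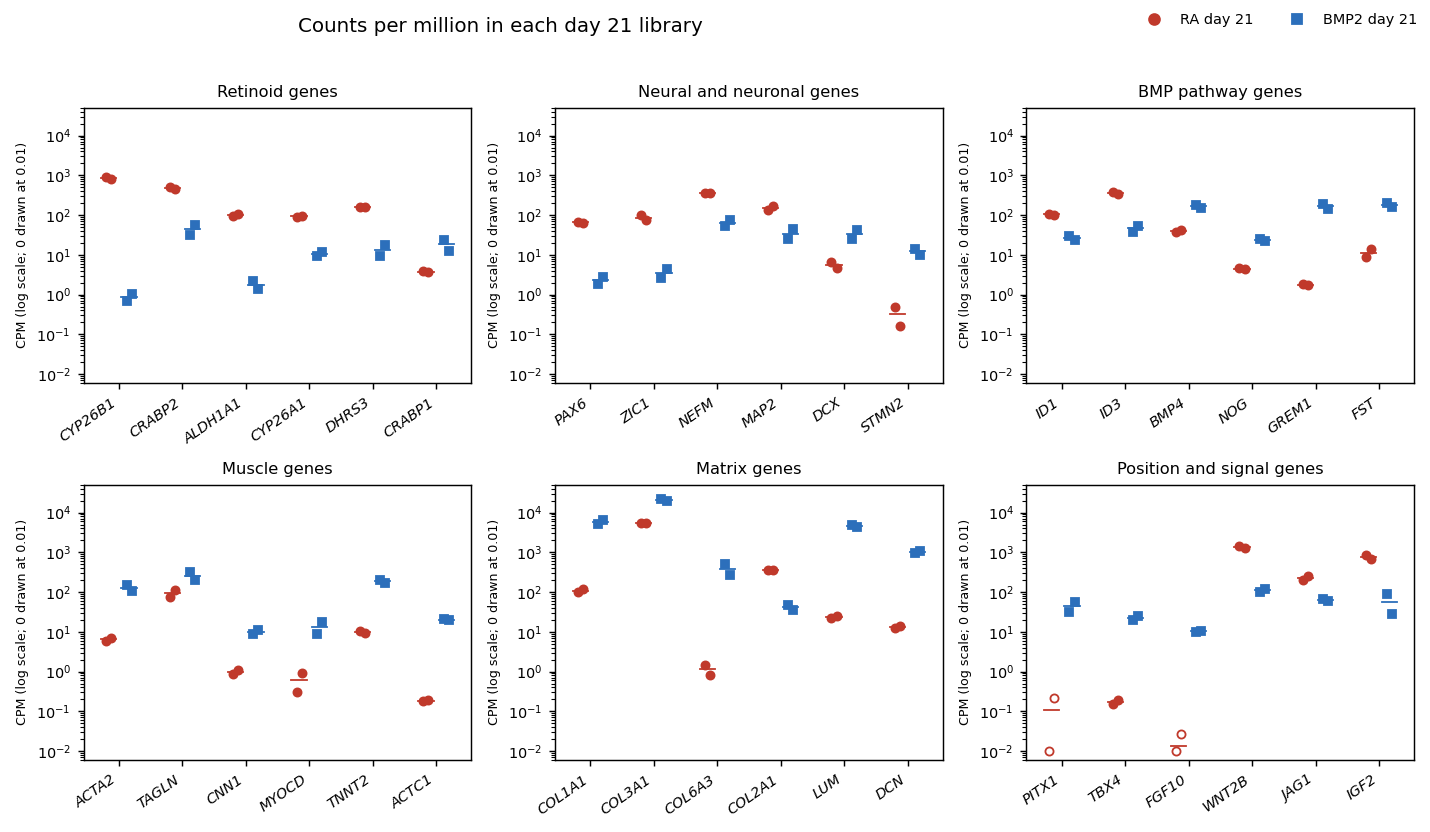
CPM on a log axis in each RA day 21 and BMP2 day 21 library for genes of each kind described below; each point is 1 library (RA circles, BMP2 squares), short lines are group means, and open points belong to a group with a library at 0, which is drawn at 0.01. CYP26B1 stands at 934 and 796 CPM in RA, against 0.698 and 1.01 CPM in BMP2, and COL6A3 at 1.49 and 0.835 CPM in RA, against 521 and 261 CPM in BMP2.

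The 3 genes given with the comparison as its markers did not overlap between the groups. The same held for many tested genes, with RA above BMP2 in 37.1% and RA below BMP2 in 33.2%. The separation of these 3 markers is therefore not a test of the comparison. CYP26B1, which destroys retinoic acid, had 934 and 796 CPM in RA libraries, against 0.698 and 1.01 CPM in BMP2 libraries (log2 fold change 9.98 ± 1.08, adjusted p = 0.00116). COL6A3, a chain of type VI collagen, had 1.49 and 0.835 CPM in RA libraries, against 521 and 261 CPM in BMP2 libraries (log2 fold change -8.39 ± 0.84, adjusted p = 0.000811). ACTA2, smooth muscle actin, had 5.86 and 7.15 CPM in RA libraries, against 151 and 106 CPM in BMP2 libraries (log2 fold change -4.30 ± 0.79, adjusted p = 0.00962). CYP26B1 was higher in both RA libraries, and COL6A3 and ACTA2 were higher in both BMP2 libraries.

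Neuronal and neural progenitor markers were summed to check the neuron label. The 7 neuron markers in the table (TUBB3 and NEFL were not analysed here) summed to 558 to 591 CPM in RA, against 211 to 238 CPM in BMP2. In RA most of that sum was NEFM, a neurofilament subunit, at 358 and 359 CPM in RA libraries, against 52.8 and 75.1 CPM in BMP2 libraries (log2 fold change 2.49 ± 0.32, adjusted p = 0.00251). Without NEFM the sums were 199 to 231 CPM in RA and 158 to 163 CPM in BMP2. SYT1, a synaptic vesicle protein, was higher in both BMP2 libraries without passing, at 25.5 and 24.8 CPM in RA libraries, against 84.5 and 49.5 CPM in BMP2 libraries (adjusted p = 0.137). MAP2, a dendritic microtubule protein, stood at 133 and 171 CPM in RA libraries, against 24.3 and 44 CPM in BMP2 libraries (log2 fold change 2.16 ± 0.37, adjusted p = 0.00737). RBFOX3, the marker of mature neurons, was at 0.717 and 0.566 CPM in RA and 0.328 and 0.21 CPM in BMP2. DCX, which marks migrating young neurons, went the other way, at 6.54 and 4.61 CPM in RA libraries, against 24.6 and 42.2 CPM in BMP2 libraries (log2 fold change -2.58 ± 0.62, adjusted p = 0.0271). STMN2, another neuronal microtubule regulator, was also higher in both BMP2 libraries without passing the test, at 0.478 and 0.162 CPM in RA libraries, against 14.2 and 10.1 CPM in BMP2 libraries (adjusted p = 0.0618). The 5 progenitor markers summed to 300 to 319 CPM in RA, against 21.1 to 30.5 CPM in BMP2. PAX6, ZIC1 and SOX2 were called higher in RA, while NES, the largest part of the RA sum, was not called (adjusted p = 0.0508). SOX1 was near 0 in both, at 0.0598 and 0 CPM in RA, against 0.123 and 0.126 CPM in BMP2 (adjusted p = 0.382). The RA cells thus carried more of some neuronal markers and less of others, with RBFOX3 under 1 CPM in each library.

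The muscle label was checked the same way. Smooth muscle markers summed to 105 to 153 CPM in RA, against 353 to 526 CPM in BMP2, and cardiac markers to 47.6 to 50.1 CPM in RA, against 206 to 245 CPM in BMP2. Without TAGLN, which was not called, the smooth muscle sums were 30.2 to 42.2 CPM in RA, against 151 to 210 CPM in BMP2. The cardiac difference was that of TNNT2, without which the sums were 37.2 to 40.6 CPM in RA and 34.2 to 41.2 CPM in BMP2. MYH11, smooth muscle myosin, had 1.55 and 1.44 CPM in RA and 0.78 and 0.693 CPM in BMP2, and LMOD1, an actin nucleator, 21.6 and 31.5 CPM in RA and 40.2 and 13.6 CPM in BMP2, neither called (adjusted p = 0.303 and 0.995). The skeletal markers MYOD1, MYOG, ACTA1 and CKM summed to under 1 CPM in each of the 4 libraries, 0.202 to 0.508 in RA and 0.328 to 0.882 in BMP2. Fibroblast markers were the most abundant of the sets compared here, at 5684 to 5753 CPM in RA and 31617 to 33041 CPM in BMP2. Nearly all of that was COL1A1, COL3A1, DCN and LUM, and the others of the set, PDGFRA, PDGFRB and THY1, summed to 211 to 228 CPM in RA and 187 to 202 CPM in BMP2. Epithelial markers stood at 2369 to 2876 CPM in RA and 3801 to 3809 CPM in BMP2, nearly all of it KRT8 and KRT18. The others of that set were far lower. EPCAM had 22.8 and 25.6 CPM in RA and 11.5 and 9.45 CPM in BMP2, and CDH1 39.9 and 28 CPM in RA and 60.1 and 54.7 CPM in BMP2. Stromal and epithelial markers were thus detected in both cultures beside those of the labelled fate, and their part in each result was not tested. Of the 11 called genes named for this group, 4 kept their call whichever single library was left out (NEFM, LUM, CYP26B1 and COL6A3). The call was lost by 6 and 7 of them without RA day 21 replicates 1 and 2, and by 3 and 5 without BMP2 day 21 replicates 1 and 2 (TNNT2 also without a library of another day). The largest shift of a log2 fold change was 0.585 (COL6A3). STMN2, not called with all libraries, was called in at least 1 of the 14 fits.

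Genes that make, carry and destroy retinoic acid differed widely. In the retinoid list, 7 of 17 tested members rose and 2 fell (median log2 fold change 0.58 over the list). Without 1 library, 3 to 7 rose and 0 to 4 fell. CYP26A1, the other inducible destroying enzyme, had 89.2 and 96 CPM in RA libraries, against 9.32 and 11.8 CPM in BMP2 libraries (log2 fold change 3.13 ± 0.76, adjusted p = 0.0275). DHRS3, which turns retinal back into retinol, had 155 and 158 CPM in RA libraries, against 9.34 and 17.4 CPM in BMP2 libraries (log2 fold change 3.55 ± 0.64, adjusted p = 0.00909). CYP26A1, DHRS3 and CYP26B1 limit the supply of retinoic acid, and each was higher in both RA libraries.

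The enzymes that make retinoic acid did not move as one. ALDH1A1 had 94.2 and 109 CPM in RA libraries, against 2.2 and 1.34 CPM in BMP2 libraries (log2 fold change 5.84 ± 0.90, adjusted p = 0.00475). ALDH1A3 had 0 and 0.0404 CPM in RA libraries, against 3.28 and 14.2 CPM in BMP2 libraries, 3 counts over the RA libraries and 838 over the BMP2 libraries, a BMP2 over RA ratio of 409 (95% exact interval 140.0 to 1988) that covers counting error only and takes counts as independent (adjusted p = 0.00481). ALDH1A2, the main embryonic form, overlapped between the groups at 55.5 and 30.5 CPM in RA libraries, against 34 and 23.4 CPM in BMP2 libraries (adjusted p = 0.69). The carrier proteins split too. CRABP2, which delivers retinoic acid to its receptors, had 506 and 462 CPM in RA libraries, against 31.4 and 56.4 CPM in BMP2 libraries (log2 fold change 3.46 ± 0.98, adjusted p = 0.0468), while CRABP1, which holds it in the cytoplasm, had 3.94 and 3.64 CPM in RA libraries, against 24 and 12.6 CPM in BMP2 libraries (log2 fold change -2.27 ± 0.54, adjusted p = 0.0264). STRA6, the retinol importer, and RDH10, which starts the synthesis, did not pass, with log2 fold changes of 2.13 ± 0.82 and -1.66 ± 0.72 (adjusted p = 0.115 and 0.159).

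Among receptors and target genes, 5 of 15 tested members rose and these were the only ones called (median log2 fold change 0.62 over the list). Without 1 library, 2 to 6 rose. The largest was NR2F1, an orphan receptor of retinoid-treated cells, at 128 and 89.4 CPM in RA libraries, against 1.52 and 3.44 CPM in BMP2 libraries (log2 fold change 5.46 ± 0.50, adjusted p = 0.000698). TSHZ1, a trunk zinc finger factor, had 162 and 145 CPM in RA libraries, against 22 and 25.3 CPM in BMP2 libraries (log2 fold change 2.70 ± 0.21, adjusted p = 0.000303). MEIS1 and MEIS2, partners of HOX proteins on DNA, rose, with log2 fold changes of 2.48 ± 0.53 and 1.71 ± 0.40 (adjusted p = 0.0174 and 0.0246). The receptors themselves differed less. RARB, whose promoter holds the repeat shown above, had 54.5 and 57.3 CPM in RA libraries, against 27 and 19.2 CPM in BMP2 libraries (log2 fold change 1.27 ± 0.49, adjusted p = 0.113), a gap between the groups that did not pass the test. RARA stood at 0.62 ± 0.21 and RXRA at -0.09 ± 0.26 (adjusted p = 0.0871 and 0.851). NR2F2, the close relative of NR2F1, stood at 0.29 ± 0.51 (adjusted p = 0.732). Whichever single library was left out, 3 of the 11 called genes named here kept their call (CYP26B1, NR2F1 and TSHZ1). Without RA day 21 replicates 1 and 2, 7 and 6 of them lost it, and without BMP2 day 21 replicates 1 and 2, 6 and 5 (CRABP2 also without a library of another day). Here the largest shift of a log2 fold change was 3.38 (ALDH1A3). RDH10 and RARB, not called with all libraries, were called in at least 1 of the 14 fits.

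The HOX genes, which lie in 4 clusters and give position along the body axis by their number, divided by their number. Of the 15 tested genes of groups 1 to 5, 14 rose in RA (median log2 fold change 7.73), against 5.99% of all genes. HOXA5 had 252 and 270.5 CPM in RA libraries, against 0.369 and 0.357 CPM in BMP2 libraries (log2 fold change 9.48 ± 0.65, adjusted p = 0.00015). HOXA2, the hindbrain selector gene, had 49.5 and 44.5 CPM in RA libraries, against 0 and 0.147 CPM in BMP2 libraries (log2 fold change 9.29 ± 0.87, adjusted p = 0.000952). HOXB5 had 59.4 and 46.4 CPM in RA libraries, against 0 and 0.042 CPM in BMP2 libraries, an RA over BMP2 ratio of 2532 (95% exact interval 701 to 20908) on 2 BMP2 counts (adjusted p = 0.00254). HOXA4 rested on 1 BMP2 count, with a ratio of 1134 (95% exact interval 203 to 44812) (adjusted p = 0.00273). HOXC5 had 44.7 and 40.5 CPM in RA libraries, against 0.0205 and 0.126 CPM in BMP2 libraries (log2 fold change 9.15 ± 1.29, adjusted p = 0.00436). In most of these genes the BMP2 libraries were near 0. HOXB1, the only one of the 15 not called, had 0.926 and 0.337 CPM in RA libraries, against 0.0821 and 0.126 CPM in BMP2 libraries (adjusted p = 0.084).

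The later groups went both ways. Of 24 tested genes of groups 6 to 13, 7 rose and 4 fell (29.2% and 16.7% of the list; 3 to 8 and 2 to 4 without 1 library). The risers named are HOXB6, HOXB8 and HOXA7, of groups 6 to 8. HOXB6 had 45 and 36.6 CPM in RA libraries, against 0.41 and 0.483 CPM in BMP2 libraries (log2 fold change 6.51 ± 0.92, adjusted p = 0.00341), and HOXB8 and HOXA7 had log2 fold changes of 6.07 ± 0.75 and 5.44 ± 1.03 (adjusted p = 0.00268 and 0.0109). Those that fell were HOXA11, HOXC11, HOXA13 and HOXC13, the genes of the tail end and distal limb. HOXA13 had 0.0299 and 0 CPM in RA libraries, against 18.2 and 26.7 CPM in BMP2 libraries, a BMP2 over RA ratio of 1581 (95% exact interval 437 to 13066) on 2 RA counts (adjusted p = 0.00149). HOXC11 had no RA count, against 3.28 and 3.95 CPM in BMP2, and was at least 169.9-fold lower in RA (adjusted p = 0.00558). HOXA11 and HOXC13 fell (log2 fold changes -4.77 ± 1.30 and -2.32 ± 0.65, adjusted p = 0.045 and 0.0449). The genes of groups 9 and 10 were not called, with HOXB9 at 1.29 ± 0.71 and HOXD10 at 0.57 ± 0.75 (adjusted p = 0.26 and 0.642). HOXB-AS2, an antisense transcript of the HOXB cluster, had no BMP2 count and was at least 226-fold higher in RA (adjusted p = 0.00636). Ordered by number, the calls thus ran higher in RA up to group 8 and lower in RA in groups 11 and 13. The other 13 of the 24 later genes were not called. The call held in all 14 fits without 1 library for 10 of the 13 called genes named here (HOXA2, HOXA4, HOXA5, HOXB5, HOXC5, HOXB6, HOXB8, HOXC11, HOXA13 and HOXB-AS2). Leaving out RA day 21 replicates 1 and 2 ended the call of 3 and 3 of them, and leaving out BMP2 day 21 replicates 1 and 2 that of 3 and 3 (HOXA11 and HOXC13 also without a library of another day). Among them the largest shift of a log2 fold change was 5.12 (HOXA2).

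**Figure D2:**
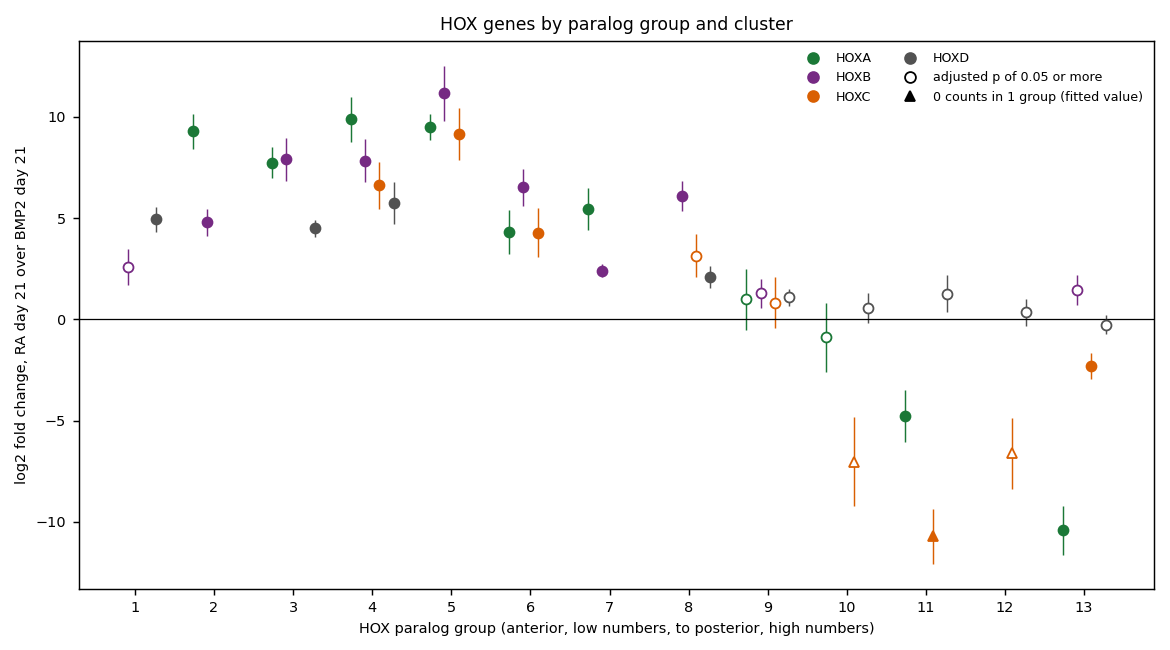
Log2 fold change (RA over BMP2 at day 21, bars show the standard error) of tested HOX genes by paralog group (1 of them is not drawn), coloured by cluster; filled points are called, and triangles are fitted values of genes with 0 counts in 1 group. The genes of groups 1 to 5 lie above 0, and all of those drawn but HOXB1 are called higher in RA, while the 4 called lower in RA are of groups 11 and 13.

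Several neural progenitor genes were higher in RA. Of 26 tested, 7 rose and these were the only ones called (26.9% of the list; 4 to 12 rose and 0 to 1 fell without 1 library) (median log2 fold change 2.57). PAX6, the eye and forebrain to hindbrain patterning factor, had 68.7 and 62.4 CPM in RA libraries, against 1.85 and 2.69 CPM in BMP2 libraries (log2 fold change 4.85 ± 0.68, adjusted p = 0.00317). ZIC1, a neural patterning factor, had 98.2 and 75.5 CPM in RA libraries, against 2.63 and 4.51 CPM in BMP2 libraries (log2 fold change 4.60 ± 0.68, adjusted p = 0.00406). SOX3, which also acts in early neural tissue, rose by 4.83 ± 0.74 (adjusted p = 0.00458). SOX2, shared by neural and pluripotent cells, had 19.4 and 22.2 CPM in RA libraries, against 4.64 and 3.86 CPM in BMP2 libraries (log2 fold change 2.29 ± 0.65, adjusted p = 0.0467), with 309.5 CPM before treatment. PAX2, a factor of the hindbrain border and kidney, was at 0.657 and 0.916 CPM in RA with no BMP2 count, at least 25.5-fold higher (adjusted p = 0.0196). NES, the progenitor filament nestin, missed the threshold at 132 and 139.8 CPM in RA libraries, against 11.9 and 19.4 CPM in BMP2 libraries (adjusted p = 0.0508), and SOX11 was not called at 0.22 ± 0.20 (adjusted p = 0.516).

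Few genes that commit cells to neurons were called. In the proneural list 2 of 23 rose and 1 fell (8.7% and 4.35% of the list, against 5.99% and 6.07% of all genes; 1 to 2 and 0 to 2 without 1 library), close to the shares of all genes. EBF1, a late neuronal differentiation factor, had 18.6 and 17.9 CPM in RA libraries, against 3.14 and 2.23 CPM in BMP2 libraries (log2 fold change 2.76 ± 0.39, adjusted p = 0.00347). ISL1, a motor neuron and heart progenitor factor, had 0.389 and 0.62 CPM in RA libraries, against 45 and 45.4 CPM in BMP2 libraries (log2 fold change -6.47 ± 1.03, adjusted p = 0.00548). Among 18 neuronal cytoskeleton genes 4 rose and 3 fell (22.2% and 16.7% of the list; 2 to 5 and 0 to 4 without 1 library). DCLK1 and DPYSL5, microtubule and growth cone proteins, rose by 2.79 ± 0.47 and 2.49 ± 0.54 (adjusted p = 0.00737 and 0.0188). L1CAM, a neuronal adhesion protein, fell, at 0.598 and 1.15 CPM in RA libraries, against 21 and 63.7 CPM in BMP2 libraries (log2 fold change -5.59 ± 0.95, adjusted p = 0.00741). Of the cytoskeleton and adhesion genes named, NEFM, MAP2, DCLK1 and DPYSL5 were thus called higher in RA, and DCX and L1CAM lower.

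Of 26 synapse and transmitter genes, 2 rose and 3 fell (7.69% and 11.5% of the list, against 5.99% and 6.07% of all genes; 0 to 6 and 0 to 6 without 1 library). SCG5 and SV2A, of secretory and synaptic vesicles, rose by 1.84 ± 0.43 and 1.15 ± 0.29 (adjusted p = 0.0232 and 0.0312). SYT4, a vesicle protein, had 0.418 and 0.404 CPM in RA libraries, against 5.83 and 3.61 CPM in BMP2 libraries (log2 fold change -3.51 ± 0.93, adjusted p = 0.0366). CHAT, which makes acetylcholine, had 0.0299 and 0.108 CPM in RA libraries, against 2.65 and 1.66 CPM in BMP2 libraries (log2 fold change -4.91 ± 1.16, adjusted p = 0.0321). CHRNB4, a nicotinic receptor subunit, had no BMP2 count and was at least 184-fold higher in RA, at 5.35 and 6.09 CPM (adjusted p = 0.00301). SCG2, SYT1 and SNAP25 did not pass, with log2 fold changes of -2.87 ± 1.05, -1.41 ± 0.58 and 1.20 ± 0.62 (adjusted p = 0.1, 0.137 and 0.231), nor did UCHL1, a neuronal hydrolase, at -0.03 ± 0.41 (adjusted p = 0.972). Among 24 axon guidance genes 1 rose and 5 fell (4.17% and 20.8% of the list; 0 to 1 and 0 to 10 without 1 library). NTN1, the attractant netrin, had 51.2 and 80.1 CPM in RA libraries, against 13.4 and 15.5 CPM in BMP2 libraries (log2 fold change 2.18 ± 0.43, adjusted p = 0.0129). NRP1, EFNB2 and SLIT3, also used in vessels and stroma, fell (log2 fold changes -2.19 ± 0.43, -1.75 ± 0.28 and -1.51 ± 0.37, adjusted p = 0.0126, 0.00525 and 0.0276). Of the 22 called genes named for this group, 6 kept their call whichever single library was left out (NEFM, PAX6, ZIC1, SOX3, EBF1 and CHRNB4). The call was lost by 14 and 15 of them without RA day 21 replicates 1 and 2, and by 8 and 11 without BMP2 day 21 replicates 1 and 2 (SOX2, SV2A, SYT4 and CHAT also without a library of another day). For these the largest shift of a log2 fold change was 1.18 (CHAT). SNAP25, NES, SCG2 and SYT1, not called with all libraries, were called in at least 1 of the 14 fits.

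BMP pathway genes were compared to see whether the pathway's own ligands, antagonists and targets differed. In the list of ligands and antagonists, 1 of 22 rose and 7 fell (4.55% and 31.8% of the list; 0 to 3 and 1 to 9 without 1 library). The ligand GDF6 had 5.56 and 5.69 CPM in RA libraries, against 204 and 128 CPM in BMP2 libraries (log2 fold change -4.88 ± 0.77, adjusted p = 0.0053). BMP4, also a ligand, had 38.2 and 42.6 CPM in RA libraries, against 179.7 and 155 CPM in BMP2 libraries (log2 fold change -2.05 ± 0.53, adjusted p = 0.0335). The antagonists GREM1, FST and NOG were lower in RA. GREM1 had 1.85 and 1.7 CPM in RA libraries, against 188 and 146 CPM in BMP2 libraries (log2 fold change -6.55 ± 1.48, adjusted p = 0.0208). FST, follistatin, had 8.74 and 13.8 CPM in RA libraries, against 205 and 159 CPM in BMP2 libraries (log2 fold change -4.01 ± 0.48, adjusted p = 0.00174). NOG, noggin, fell (log2 fold change -2.37 ± 0.42, adjusted p = 0.00885). CHRDL1, another antagonist, rose, at 33.4 and 30.0 CPM in RA libraries, against 6.77 and 6.4 CPM in BMP2 libraries (log2 fold change 2.27 ± 0.52, adjusted p = 0.0223). Secreted BMP antagonists thus numbered 3 among those named as lower in RA.

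Direct BMP target genes were mostly not called, and the share called lower in RA was close to the 6.07% of all genes. Of 20 tested, 3 rose in RA and 1 fell (15% and 5% of the list; 1 to 3 and 0 to 3 without 1 library). ID3 had 370.2 and 338 CPM in RA libraries, against 38.6 and 53.6 CPM in BMP2 libraries (log2 fold change 2.94 ± 0.41, adjusted p = 0.00325). ID1 had 108 and 101 CPM in RA libraries, against 29.7 and 23.3 CPM in BMP2 libraries (log2 fold change 1.98 ± 0.36, adjusted p = 0.00962). Both encode inhibitors of helix-loop-helix factors that BMP signals are known to induce. ATOH8 had 30.3 and 26.4 CPM in RA libraries, against 2.13 and 1.51 CPM in BMP2 libraries (log2 fold change 3.96 ± 0.66, adjusted p = 0.0067). HAND1, a heart and lateral mesoderm factor, had 1.09 and 1.02 CPM in RA libraries, against 84.8 and 64.9 CPM in BMP2 libraries (log2 fold change -6.14 ± 1.39, adjusted p = 0.0209). ID2, SMAD6 and MSX1 stood at 0.26 ± 0.25, 0.16 ± 0.35 and -0.05 ± 0.83, and BAMBI, a decoy receptor, at -1.35 ± 0.40, none of them called (adjusted p = 0.532, 0.789, 0.982 and 0.056). The receptor BMPR1A fell (log2 fold change -0.67 ± 0.18, adjusted p = 0.0372). TGFBR1, the related TGF-beta receptor, had 84.8 and 87 CPM in RA libraries, against 314 and 283 CPM in BMP2 libraries (log2 fold change -1.80 ± 0.30, adjusted p = 0.00678). Whichever single library was left out, 2 of the 12 called genes named here kept their call (FST and ID3). Without RA day 21 replicates 1 and 2, 9 and 9 of them lost it, and without BMP2 day 21 replicates 1 and 2, 5 and 6 (BMP4 and BMPR1A also without a library of another day). The largest shift of a log2 fold change was 0.389 (FST). BAMBI, not called with all libraries, was called in at least 1 of the 14 fits.

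Several smooth muscle genes were higher in BMP2. In that list, 5 of 19 tested members fell and these were the only ones called (median log2 fold change -0.98 over the list). Without 1 library, 0 to 5 fell. MYOCD, the coactivator that works with serum response factor on CArG boxes, had 0.299 and 0.916 CPM in RA libraries, against 8.85 and 18 CPM in BMP2 libraries (log2 fold change -4.45 ± 0.74, adjusted p = 0.00662). CNN1, smooth muscle calponin, had 0.867 and 1.1 CPM in RA libraries, against 8.58 and 10.8 CPM in BMP2 libraries (log2 fold change -3.30 ± 0.65, adjusted p = 0.0123). SYNPO2, an actin-bundling protein, had 4.71 and 5.67 CPM in RA libraries, against 103 and 63 CPM in BMP2 libraries (log2 fold change -4.00 ± 0.75, adjusted p = 0.0104). DES, the muscle filament desmin, was near 1 CPM or below, at 0.0896 and 0.0808 CPM in RA libraries, against 0.862 and 1.03 CPM in BMP2 libraries (log2 fold change -3.44 ± 0.60, adjusted p = 0.00776). The more abundant contractile genes were lower in both RA libraries without passing. TAGLN had 74.9 and 111 CPM in RA libraries, against 316 and 202 CPM in BMP2 libraries (adjusted p = 0.276), and CALD1 and TPM1, actin regulators, stood at -1.76 ± 0.64 and -0.98 ± 0.38 (adjusted p = 0.0998 and 0.118).

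Cardiac genes were called in the same direction, with 7 of 24 tested lower in RA and these the only ones called (29.2% of the list; 0 to 1 rose and 1 to 10 fell without 1 library). TNNT2, cardiac troponin T, had 10.4 and 9.51 CPM in RA libraries, against 204 and 172 CPM in BMP2 libraries (log2 fold change -4.24 ± 1.15, adjusted p = 0.0401). GATA4, an early heart factor, had 2.58 and 2.63 CPM in RA libraries, against 122 and 122 CPM in BMP2 libraries (log2 fold change -5.54 ± 1.13, adjusted p = 0.0144). TBX20, a heart transcription factor, had no RA count, against 6.28 and 4.2 CPM in BMP2, and was at least 247-fold lower in RA (adjusted p = 0.00162). ACTC1 and MYL4, of the early heart, fell (log2 fold changes -6.76 ± 1.32 and -5.57 ± 1.31, adjusted p = 0.0125 and 0.0251), as did HAND1 and ISL1 above. MYH6, the atrial myosin, was not called at 27.9 and 28.9 CPM in RA libraries, against 20.6 and 21.8 CPM in BMP2 libraries (adjusted p = 0.338). Nor was NKX2-5, the core heart factor, at 7.29 and 8.19 CPM in RA libraries, against 15 and 8.46 CPM in BMP2 libraries (adjusted p = 0.523). In the skeletal list 1 of 17 tested members fell (5.88% of the list), close to the 6.07% of all genes, and it was the only one called. This was MYMK, needed for myoblast fusion, at 0.359 and 0.296 CPM in RA libraries, against 2.59 and 3.44 CPM in BMP2 libraries (log2 fold change -3.19 ± 0.72, adjusted p = 0.0284). IGFN1, a muscle sarcomere protein outside these lists, ran against them, at 108 and 106 CPM in RA libraries, against 0.0821 and 0.126 CPM in BMP2 libraries (log2 fold change 9.98 ± 1.51, adjusted p = 0.00447). The call held in all 14 fits without 1 library for 2 of the 13 called genes named here (TBX20 and IGFN1). Leaving out RA day 21 replicates 1 and 2 ended the call of 11 and 10 of them, and leaving out BMP2 day 21 replicates 1 and 2 that of 3 and 6 (TNNT2 also without a library of another day). Here the largest shift of a log2 fold change was 1.25 (MYL4).

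Many extracellular matrix genes were lower in RA. Of 24 collagens, 2 rose and 12 fell (8.33% and 50% of the list, against 5.99% and 6.07% of all genes; 1 to 2 and 4 to 12 without 1 library), with 4 falling without RA day 21 replicate 1 or 2. Of 9 small leucine-rich proteoglycans, 7 fell and these were the only ones called (77.8% of the list; 4 to 7 without 1 library). COL1A1, the main collagen of bone and skin, had 98.2 and 116 CPM in RA libraries, against 5171 and 6416 CPM in BMP2 libraries (log2 fold change -5.75 ± 1.21, adjusted p = 0.0158). COL1A2, its partner, had 57.5 and 56.8 CPM in RA libraries, against 603 and 907 CPM in BMP2 libraries (log2 fold change -3.72 ± 0.64, adjusted p = 0.00779). COL15A1, COL8A2 and COL4A1, of vessel walls and basement membranes, fell (log2 fold changes -6.19 ± 1.09, -4.64 ± 0.37 and -2.68 ± 0.52, adjusted p = 0.00849, 0.000303 and 0.0115). The abundant COL3A1, COL5A2 and COL11A1 were not called, at -1.96 ± 1.39, -1.54 ± 0.70 and -0.31 ± 1.06 (adjusted p = 0.378, 0.172 and 0.875); COL3A1 had 5340 and 5369 CPM in RA libraries, against 21948 and 19563 CPM in BMP2 libraries. COL2A1 and COL9A1, chains of cartilage collagen, were the pair that rose. COL2A1 had 361 and 362 CPM in RA libraries, against 46 and 36.4 CPM in BMP2 libraries (log2 fold change 3.13 ± 0.60, adjusted p = 0.011). COL9A1 had 33.2 and 37.8 CPM in RA libraries, against 0.349 and 1.18 CPM in BMP2 libraries (log2 fold change 5.54 ± 0.86, adjusted p = 0.00488).

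Proteoglycans that coat collagen fibrils were far lower in RA. LUM had 21.9 and 25.1 CPM in RA libraries, against 4799 and 4385 CPM in BMP2 libraries (log2 fold change -7.61 ± 0.90, adjusted p = 0.00162). DCN had 12.6 and 13.8 CPM in RA libraries, against 936 and 1050 CPM in BMP2 libraries (log2 fold change -6.23 ± 1.35, adjusted p = 0.0208). FMOD had 0.0299 and 0.135 CPM in RA libraries, against 131 and 35.6 CPM in BMP2 libraries, a spread in BMP2 that still left RA far below (log2 fold change -9.91 ± 1.22, adjusted p = 0.00269). OGN, ASPN, PRELP and BGN, of the same family, fell (log2 fold changes -7.90 ± 0.71, -7.72 ± 1.42, -6.96 ± 0.73 and -3.19 ± 0.86, adjusted p = 0.00065, 0.0142, 0.00107 and 0.039).

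Matrix glycoproteins and enzymes were mostly lower in RA where they were called. Of 31 matrix glycoproteins, 1 rose and 10 fell (3.23% and 32.3% of the list; 0 to 3 and 2 to 14 without 1 library). FN1, fibronectin, had 849 and 1251 CPM in RA libraries, against 7030 and 11967 CPM in BMP2 libraries (log2 fold change -3.18 ± 0.55, adjusted p = 0.00799). MFAP5, an elastic fibre protein, had 2.87 and 5.77 CPM in RA libraries, against 751 and 1254 CPM in BMP2 libraries (log2 fold change -7.86 ± 2.04, adjusted p = 0.0345). SPARC, a collagen-binding protein, had 2476 and 2991 CPM in RA libraries, against 8928 and 13501 CPM in BMP2 libraries (log2 fold change -2.04 ± 0.53, adjusted p = 0.036). FBLN5, THBS1 and VTN fell (log2 fold changes -3.10 ± 0.68, -3.40 ± 0.96 and -5.05 ± 1.09, adjusted p = 0.0186, 0.0461 and 0.018), while MFAP2, a microfibril protein, rose by 1.38 ± 0.38 (adjusted p = 0.0423) and POSTN did not pass at 2.62 ± 0.77 (adjusted p = 0.0528). Of 24 proteases and crosslinking enzymes, 1 rose and 7 fell (4.17% and 29.2% of the list; 0 to 1 and 3 to 9 without 1 library). MMP2, a gelatinase, had 149 and 125 CPM in RA libraries, against 1321 and 1287 CPM in BMP2 libraries (log2 fold change -3.25 ± 0.34, adjusted p = 0.001). TIMP3, LOXL2, ADAMTS2 and MMP15 fell (log2 fold changes -2.99 ± 0.61, -2.48 ± 0.50, -3.81 ± 0.50 and -3.66 ± 0.45, adjusted p = 0.014, 0.0131, 0.00268 and 0.00187). LOXL3 rose by 1.58 ± 0.33 (adjusted p = 0.0163). COMP, of cartilage, had no RA count and was at least 199.7-fold lower in RA (adjusted p = 0.00819). HAPLN1, the cartilage link protein, had 0.747 and 0.674 CPM in RA libraries, against 14 and 44.5 CPM in BMP2 libraries (log2 fold change -5.36 ± 0.86, adjusted p = 0.00567). The fibroblast marker sums given above consist mostly of these same matrix genes, and without them were 211 to 228 CPM in RA and 187 to 202 CPM in BMP2. Of the 29 called genes named for this group, 9 kept their call whichever single library was left out (LUM, COL8A2, COL9A1, FMOD, OGN, PRELP, MMP2, ADAMTS2 and MMP15). The call was lost by 20 and 20 of them without RA day 21 replicates 1 and 2, and by 7 and 15 without BMP2 day 21 replicates 1 and 2 (BGN, MFAP5, THBS1, MFAP2 and SPARC also without a library of another day). Among them the largest shift of a log2 fold change was 1.45 (FMOD). POSTN, not called with all libraries, was called in at least 1 of the 14 fits.

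**Figure D3:**
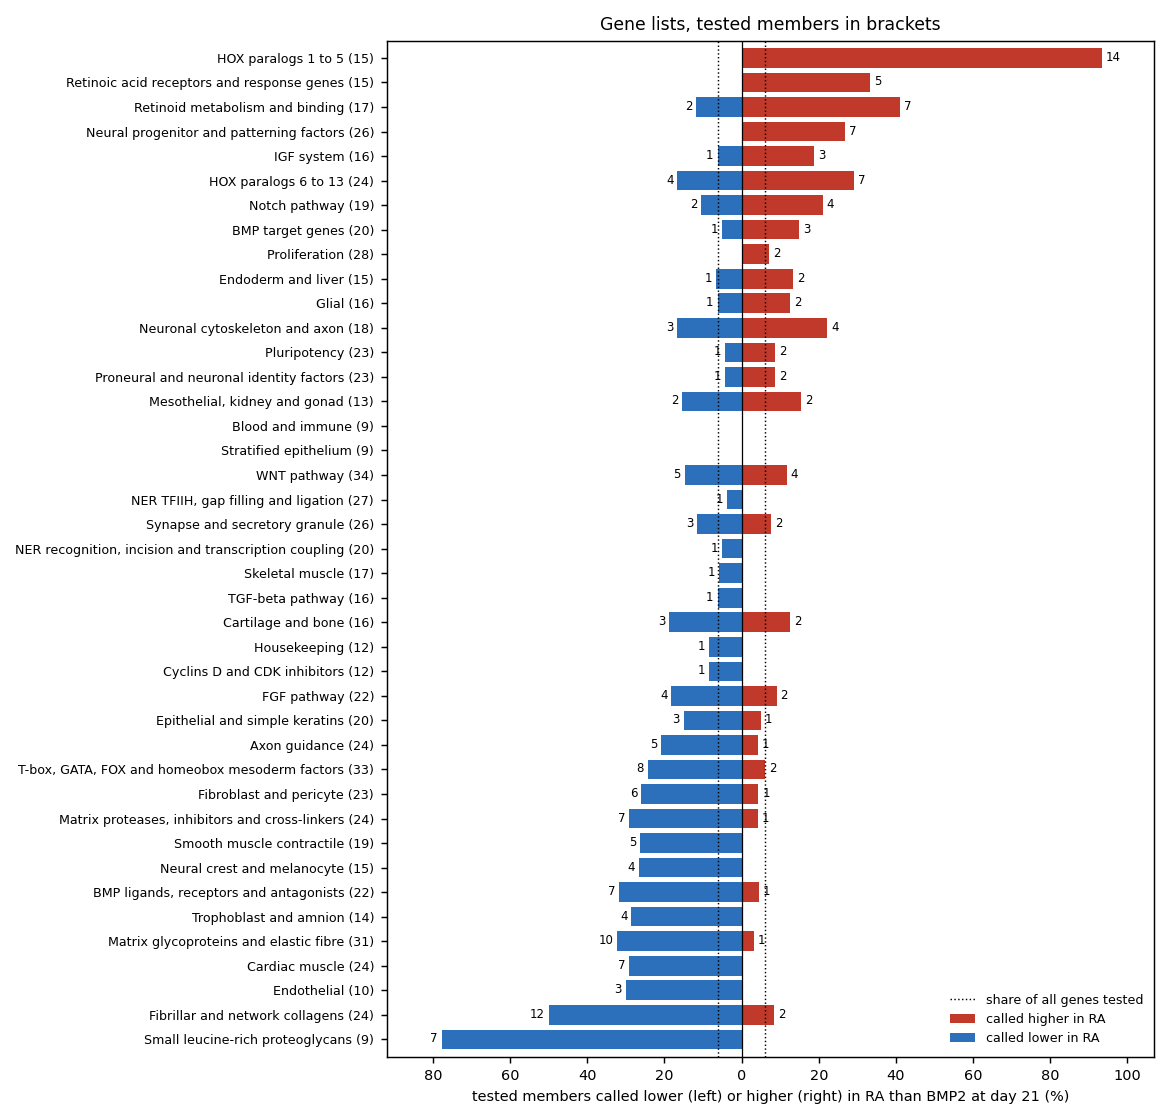
Share of the tested members of each gene list called higher (right) or lower (left) in RA than in BMP2 at day 21, in percent, for 41 lists with at least 9 tested members; bar labels are numbers of genes, and dotted lines are the shares of all genes, 5.99% higher and 6.07% lower. HOX groups 1 to 5 have 14 of 15 called higher in RA, and collagens 12 of 24 called lower in RA.

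Some genes of position and of limb and body wall mesoderm were lower in RA. Of 33 mesoderm transcription factors, 2 rose, 8 fell and 23 were not called (6.06% and 24.2% of the list; 0 to 5 and 2 to 11 without 1 library). PITX1 and TBX4 specify the hind limb in the embryo. PITX1 had 0 and 0.216 CPM in RA libraries, against 31.1 and 56.3 CPM in BMP2 libraries (log2 fold change -8.59 ± 1.32, adjusted p = 0.00475). TBX4 had 0.149 and 0.189 CPM in RA libraries, against 19.7 and 24.8 CPM in BMP2 libraries (log2 fold change -7.02 ± 1.08, adjusted p = 0.00475). FOXF1, of gut and body wall mesoderm, fell (log2 fold change -4.53 ± 1.00, adjusted p = 0.0191) and FOXC1 rose (log2 fold change 2.29 ± 0.40, adjusted p = 0.00849). FGF10, the limb bud growth factor, had 2 RA counts against 10.2 and 10.3 CPM in BMP2, a BMP2 over RA ratio of 723 (95% exact interval 200.0 to 5978) (adjusted p = 0.0101), and FGF18 fell (log2 fold change -3.04 ± 0.50, adjusted p = 0.00648). In WNT genes, 4 of 34 rose and 5 fell (11.8% and 14.7% of the list, against 5.99% and 6.07% of all genes; 1 to 5 and 0 to 8 without 1 library). WNT2B had 1436 and 1273 CPM in RA libraries, against 102 and 120.1 CPM in BMP2 libraries (log2 fold change 3.61 ± 0.81, adjusted p = 0.0204). RSPO2, which amplifies WNT signals, the ligand WNT2 and the inhibitor DKK1 fell (log2 fold changes -7.32 ± 1.75, -5.69 ± 1.13 and -4.86 ± 0.73, adjusted p = 0.0258, 0.0128 and 0.00446). SFRP4 and WIF1, secreted WNT inhibitors, and FZD7, a receptor, rose by 5.02 ± 1.17, 3.67 ± 0.72 and 1.58 ± 0.19 (adjusted p = 0.0232, 0.0126 and 0.00162).

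In the Notch pathway 4 of 19 rose and 2 fell (21.1% and 10.5% of the list; 1 to 6 and 0 to 4 without 1 library). JAG1, a Notch ligand, had 207 and 247 CPM in RA libraries, against 65.6 and 60.0 CPM in BMP2 libraries (log2 fold change 1.85 ± 0.27, adjusted p = 0.00405). JAG2, another ligand, had 2.41 and 3.3 CPM in RA libraries, against 6.28 and 13.7 CPM in BMP2 libraries (log2 fold change -1.81 ± 0.40, adjusted p = 0.0194). HES1 and HES4, targets of Notch, rose by 1.07 ± 0.22 and 1.95 ± 0.34 (adjusted p = 0.0146 and 0.00809), and NOTCH2, a receptor, rose by 0.70 ± 0.20 (adjusted p = 0.0496). LFNG, which modifies the receptor, fell (log2 fold change -1.93 ± 0.45, adjusted p = 0.0245). In the insulin-like growth factor list, 3 of 16 rose and 1 fell (18.8% and 6.25% of the list). IGF2 had 863 and 660.3 CPM in RA libraries, against 87.1 and 27.6 CPM in BMP2 libraries (log2 fold change 3.73 ± 0.62, adjusted p = 0.00687). IGFBP4, a binding protein, had 27.6 and 17.7 CPM in RA libraries, against 159 and 197 CPM in BMP2 libraries (log2 fold change -2.97 ± 0.41, adjusted p = 0.00307). The abundant H19 and IGFBP5 were not called, at 0.77 ± 0.61 and -0.03 ± 0.42 (adjusted p = 0.434 and 0.974). Whichever single library was left out, 5 of the 21 called genes named here kept their call (PITX1, JAG1, FZD7, IGF2 and IGFBP4). Without RA day 21 replicates 1 and 2, 15 and 15 of them lost it, and without BMP2 day 21 replicates 1 and 2, 8 and 11 (NOTCH2 also without a library of another day). For these the largest shift of a log2 fold change was 5.67 (PITX1).

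Markers of other cell types also differed. In the fibroblast list 1 of 23 rose and 6 fell (4.35% and 26.1% of the list; 0 to 1 and 2 to 9 without 1 library). FAP and CD248, of activated fibroblasts and pericytes, fell (log2 fold changes -6.11 ± 1.35 and -2.60 ± 0.58, adjusted p = 0.0196 and 0.0199). CDH11, the mesenchymal cadherin, had 35.7 and 52.8 CPM in RA libraries, against 562 and 505 CPM in BMP2 libraries (log2 fold change -3.59 ± 0.45, adjusted p = 0.00219). ZEB2 and SNAI2, factors of epithelial to mesenchymal transition, and VIM, vimentin, also fell (log2 fold changes -1.46 ± 0.14, -2.38 ± 0.49 and -1.82 ± 0.30, adjusted p = 0.000767, 0.0154 and 0.00648). PDGFRA rose, at 66.2 and 57.5 CPM in RA libraries, against 19.5 and 11.3 CPM in BMP2 libraries (log2 fold change 2.01 ± 0.49, adjusted p = 0.0285), and PDGFRB and the pericyte gene RGS5 were not called, at -0.25 ± 0.40 and 0.62 ± 0.54 (adjusted p = 0.707 and 0.471). KRT8 and KRT18 were abundant in both and not called, with KRT8 at 1916 and 2329 CPM in RA libraries, against 3119 and 3174 CPM in BMP2 libraries (adjusted p = 0.377 and 0.579). KRT19 had 10.9 and 10.6 CPM in RA libraries, against 269 and 296 CPM in BMP2 libraries (log2 fold change -4.71 ± 0.44, adjusted p = 0.000698). KRT7 had 1.85 and 3.14 CPM in RA libraries, against 35.9 and 126 CPM in BMP2 libraries (log2 fold change -5.02 ± 1.13, adjusted p = 0.0208). PKP2 fell (log2 fold change -1.69 ± 0.39, adjusted p = 0.0226) and CLDN3 was at least 5.46-fold higher in RA with no BMP2 count (adjusted p = 0.0423). DSP, EPCAM and CDH1 were not called (adjusted p = 0.751, 0.296 and 0.688).

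In the mesothelial, kidney and gonad list 2 of 13 rose and 2 fell (15.4% and 15.4% of the list; 0 to 4 and 0 to 3 without 1 library), with a median log2 fold change of 1.44. LRRN4, of mesothelium, had 6.42 and 9.07 CPM in RA libraries, against 574 and 703 CPM in BMP2 libraries (log2 fold change -6.37 ± 0.97, adjusted p = 0.00464). UPK3B, also mesothelial, had 9.86 and 10.3 CPM in RA libraries, against 217 and 149 CPM in BMP2 libraries (log2 fold change -4.18 ± 0.87, adjusted p = 0.0155). PAX8, a kidney and thyroid factor, and AMH, a hormone of the gonad, rose by 1.46 ± 0.40 and 1.44 ± 0.30 (adjusted p = 0.0415 and 0.015). In the endothelial list 3 of 10 fell (30% of the list) and these were the only ones called. FLT1, KDR and ERG fell (log2 fold changes -6.64 ± 0.81, -2.54 ± 0.53 and -3.74 ± 1.05, adjusted p = 0.00183, 0.0154 and 0.0448), though the defining markers CDH5 and VWF summed to 2.87 to 3.17 CPM in RA and 2.83 to 4.64 CPM in BMP2. FOXA1, an endoderm and floor plate factor, had 15.8 and 13.7 CPM in RA libraries, against 0.123 and 0.42 CPM in BMP2 libraries (log2 fold change 5.75 ± 0.74, adjusted p = 0.00307), and FOXA3 was at least 10.5-fold higher in RA (adjusted p = 0.024). PPARG, the adipocyte factor, rose by 3.87 ± 1.06 (adjusted p = 0.0415), the only called gene of 5 tested in the adipocyte list (20%). In the glial list 2 of 16 rose and 1 fell (12.5% and 6.25% of the list, against 5.99% and 6.07% of all genes). SLC1A2, a glutamate transporter, rose (log2 fold change 3.17 ± 0.73, adjusted p = 0.0217) and ALDH1L1 fell (log2 fold change -5.28 ± 0.98, adjusted p = 0.01). The call held in all 14 fits without 1 library for 5 of the 23 called genes named here (CDH11, ZEB2, KRT19, FLT1 and FOXA1). Leaving out RA day 21 replicates 1 and 2 ended the call of 18 and 17 of them, and leaving out BMP2 day 21 replicates 1 and 2 that of 12 and 13 (CLDN3, ERG, PPARG and PAX8 also without a library of another day). The largest shift of a log2 fold change was 1.15 (KRT7).

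Few cell cycle and pluripotency genes were called with all libraries. Of 28 proliferation genes, 2 rose (7.14% of the list, against 5.99% and 6.07% of all genes; 0 to 13 without 1 library), and 13 rose without either BMP2 day 10 library. CENPA and BUB1B, of the kinetochore and its checkpoint, rose, by 1.87 ± 0.42 and 1.43 ± 0.40 (adjusted p = 0.0202 and 0.0462). MKI67 was higher in both RA libraries without passing, at 152 and 131 CPM in RA libraries, against 85.7 and 51.5 CPM in BMP2 libraries (log2 fold change 1.04 ± 0.38, adjusted p = 0.0992), against 551 CPM in untreated cells, and TOP2A stood at 1.14 ± 0.39 (adjusted p = 0.0832). CCND2, a cyclin of the G1 phase, had 471 and 512 CPM in RA libraries, against 2372 and 3623 CPM in BMP2 libraries (log2 fold change -2.61 ± 0.66, adjusted p = 0.0318), while CDKN1A and CDKN2B, cell cycle inhibitors, were not called at -1.20 ± 1.07 and -2.10 ± 1.23 (adjusted p = 0.488 and 0.283). The core pluripotency genes were low in both treatments. POU5F1 had 0.508 and 0.296 CPM in RA libraries, against 2.42 and 4.11 CPM in BMP2 libraries (adjusted p = 0.169), against 1008 CPM at day 0, and NANOG and LIN28A stood at -1.57 ± 1.18 and -2.34 ± 1.37 (adjusted p = 0.407 and 0.285). In the pluripotency list 2 of 23 rose and 1 fell (8.7% and 4.35% of the list, against 5.99% and 6.07% of all genes; 0 to 6 and 0 to 4 without 1 library), and 6 rose and 4 fell without either BMP2 day 10 library. LIN28B rose (log2 fold change 1.41 ± 0.29, adjusted p = 0.0158), as did SOX2 above, and ZFP42 fell (log2 fold change -4.29 ± 0.77, adjusted p = 0.00895). DPPA4 was not called at -0.09 ± 0.21 (adjusted p = 0.794). Of the nucleotide excision repair genes, which the series is about, ERCC6 and GTF2H1 fell (log2 fold changes -0.91 ± 0.23 and -0.90 ± 0.24, adjusted p = 0.0304 and 0.0352). They were 1 of 20 and 1 of 27 tested in the lists for lesion recognition and for repair by TFIIH and gap filling. These shares, 5% and 3.7%, are below the 6.07% of all genes called lower. XPC, DDB1 and DDB2 were not called (adjusted p = 0.529, 0.251 and 0.548). Each of the 8 called genes named here lost its call in at least 1 of the 14 fits without 1 library. The call was lost by 8 and 7 of them without RA day 21 replicates 1 and 2, and by 5 and 7 without BMP2 day 21 replicates 1 and 2 (SOX2, BUB1B, CCND2 and GTF2H1 also without a library of another day). Here the largest shift of a log2 fold change was 2.0 (ZFP42). MKI67, TOP2A, CDKN1A, POU5F1, LIN28A and DDB1, not called with all libraries, were called in at least 1 of the 14 fits.

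The largest changes by the naming rule were ranked among genes of at least 5 CPM in the higher group. On the side higher in RA stood SUCNR1, a succinate receptor, with 54.8 and 60.7 CPM in RA and no BMP2 count, at least 1860-fold higher (adjusted p = 0.0249). FREM3, a matrix protein, was at least 222-fold higher (adjusted p = 0.00904). FOXD2-AS1, a noncoding RNA, was at least 196-fold higher (adjusted p = 0.00842). On the side lower in RA stood CLEC12A, a lectin of myeloid cells, with no RA count, against 12 and 16.1 CPM in BMP2, at least 659.7-fold lower (adjusted p = 0.015). CLEC1B, a lectin of platelets, had a BMP2 over RA ratio of 3382 (95% exact interval 936 to 27938) (adjusted p = 0.00688). CYP1A2, a drug-metabolising enzyme, was at least 276-fold lower (adjusted p = 0.0223). MLC1, a glial membrane protein, had a BMP2 over RA ratio of 760 (95% exact interval 210.0 to 6286) (adjusted p = 0.011). The blood markers PTPRC and CD34 summed to 0.359 to 0.835 CPM in RA and 0.452 to 1.45 CPM in BMP2, beside the 2 lectins. Every one of these ratios rests on 0 to 2 counts in the lower group. Because a read pair may give 2 counts, the intervals can be too narrow and the bounds too high. Each of the 7 called genes named here lost its call in at least 1 of the 14 fits without 1 library. Without RA day 21 replicates 1 and 2, 6 and 6 of them lost it, and without BMP2 day 21 replicates 1 and 2, 2 and 5. Among them the largest shift of a log2 fold change was 2.91 (MLC1).

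The same contrast at days 5 and 10, in other libraries, was set beside day 21. At day 5, 2338 genes were called (12.2%; 5.97% higher and 6.25% lower in RA) and at day 10, 2075 (10.8%; 5.11% higher and 5.73% lower). Of the 1146 genes higher at day 21, 312 were also higher at day 5 and 20 were lower, and 412 were also higher at day 10 and 3 were lower. Of the 1162 lower at day 21, 361 were also lower at day 5 and 35 were higher, and 464 were also lower at day 10 and 15 were higher. A call at one day and not at another is not itself a difference between days, which was tested directly: 314 genes (1.64%) differed between days 21 and 5, and 29 (0.151%; 0.0261% higher and 0.125% lower in RA relative to BMP2 than before) between days 21 and 10. Without RA day 21 replicate 1 or 2, 3 genes differed between days 21 and 5 and 2 between days 21 and 10, and without BMP2 day 10 replicate 1 or 2, 1509 or 1507 differed from day 5 and 319 or 747 from day 10. The treatments went opposite ways at days 5 and 21 for 55 genes called on both days. The difference was called for all of them, which their choice by opposite calls in the same libraries made likely.

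**Figure D4:**
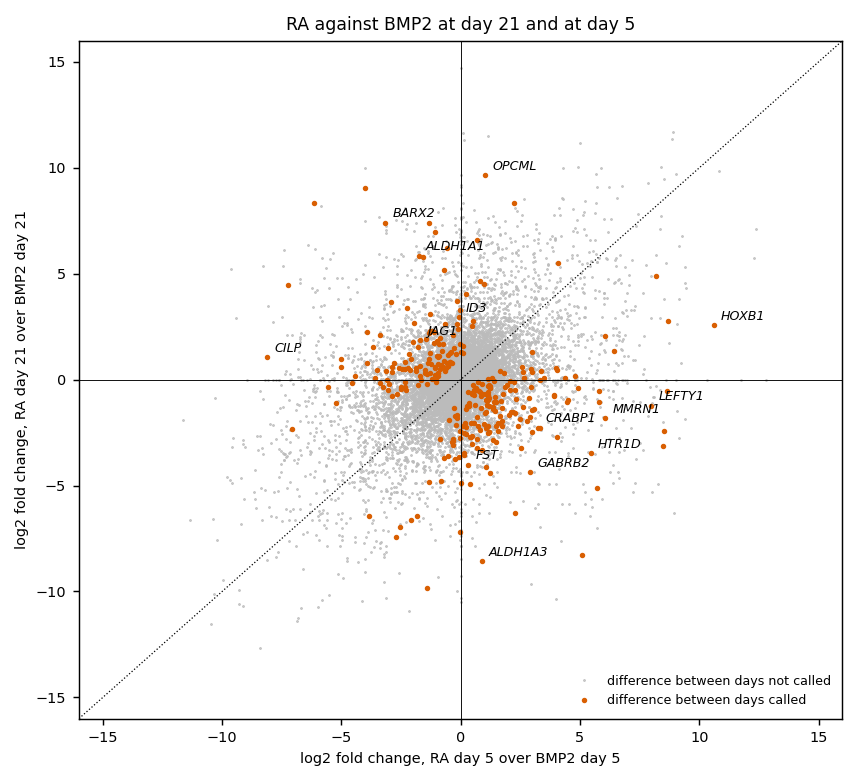
Log2 fold change of RA over BMP2 at day 5 (x axis) and day 21 (y axis) for each tested gene, with genes whose difference between the days was called marked. The dotted line marks equal values, and the 55 genes called on opposite sides lie in the upper left and lower right.

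Notch, BMP and retinoid genes were among those that differed. JAG1 averaged 68.5 CPM in RA and 225 CPM in BMP2 at day 5 (log2 fold change -1.72), where it was lower in RA. Its log2 fold change of RA over BMP2 differed between days 21 and 5 by 3.57 ± 0.39, adjusted p = 0.00814. ID3 was not called at day 5 (log2 fold change -0.09) and higher in RA at day 21, a difference of 3.03 ± 0.56, adjusted p = 0.0298. FST was not called at day 5 (0.31) and lower in RA at day 21, a difference of -4.32 ± 0.63, adjusted p = 0.0152. ALDH1A1 stood at 0.163 and 0.0875 CPM in RA and 0.304 and 0.519 CPM in BMP2 at day 5, and its difference was 7.59 ± 1.27, adjusted p = 0.0222. CRABP1 was higher in RA at day 5 (3.23) and lower at day 21, a difference of -5.50 ± 0.78, adjusted p = 0.0147. HOXB1, the first HOXB gene, was higher in RA at day 5, with 37.3 and 103 CPM in RA and 0.0381 and 0.0472 CPM in BMP2, and below 1 CPM in every day 21 library, a difference of -8.03 ± 1.47, adjusted p = 0.0299.

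Genes of neurons and signalling also differed between the days. GABRB2, a GABA receptor subunit, was higher in RA at day 5 (2.92) and at day 21 had 1.81 and 1.62 CPM in RA libraries, against 43.2 and 27.2 CPM in BMP2 libraries, a difference of -7.28 ± 0.78, adjusted p = 0.00814. FGFR1, a growth factor receptor, had a difference of -2.32 ± 0.27, adjusted p = 0.00913, OPCML, a neuronal adhesion protein, 8.62 ± 1.40, adjusted p = 0.0193 (7.19 to 13.94 over the fits without 1 library), and HTR1D, a serotonin receptor, -8.92 ± 1.07, adjusted p = 0.00913. BARX2, a homeobox factor, and ADCY8, a neuronal adenylate cyclase, had differences between days 21 and 5 of 10.59 ± 1.83, adjusted p = 0.0252 and 8.74 ± 1.52, adjusted p = 0.0254. ADCY8 rested on 3 BMP2 counts at day 21, an RA over BMP2 ratio of 181 (95% exact interval 61.8 to 881). Against day 10, DCX was higher in RA then (2.68) and lower in RA at day 21 (-2.58), but that difference was not called (-5.26 ± 0.88, adjusted p = 0.0694). CADM3, a synaptic adhesion protein, was higher in RA at day 10 (2.24), had 19.4 and 19 CPM in RA libraries, against 60.4 and 60.1 CPM in BMP2 libraries at day 21, and differed by -3.89 ± 0.31, adjusted p = 0.00191. KIF21B and ATCAY, of neuronal transport, likewise differed from day 10, by -4.20 ± 0.52, adjusted p = 0.0214 and -4.26 ± 0.57, adjusted p = 0.0302. Without RA day 21 replicate 1, and again without replicate 2, each called difference named here but that of CADM3 lost its call. The differences of JAG1, FGFR1, HTR1D and GABRB2 kept it without any other library, those of CRABP1 and FST lost it also without either BMP2 day 5 library, and the others named lost it also without at least 1 BMP2 day 21 library.

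**Figure D5:**
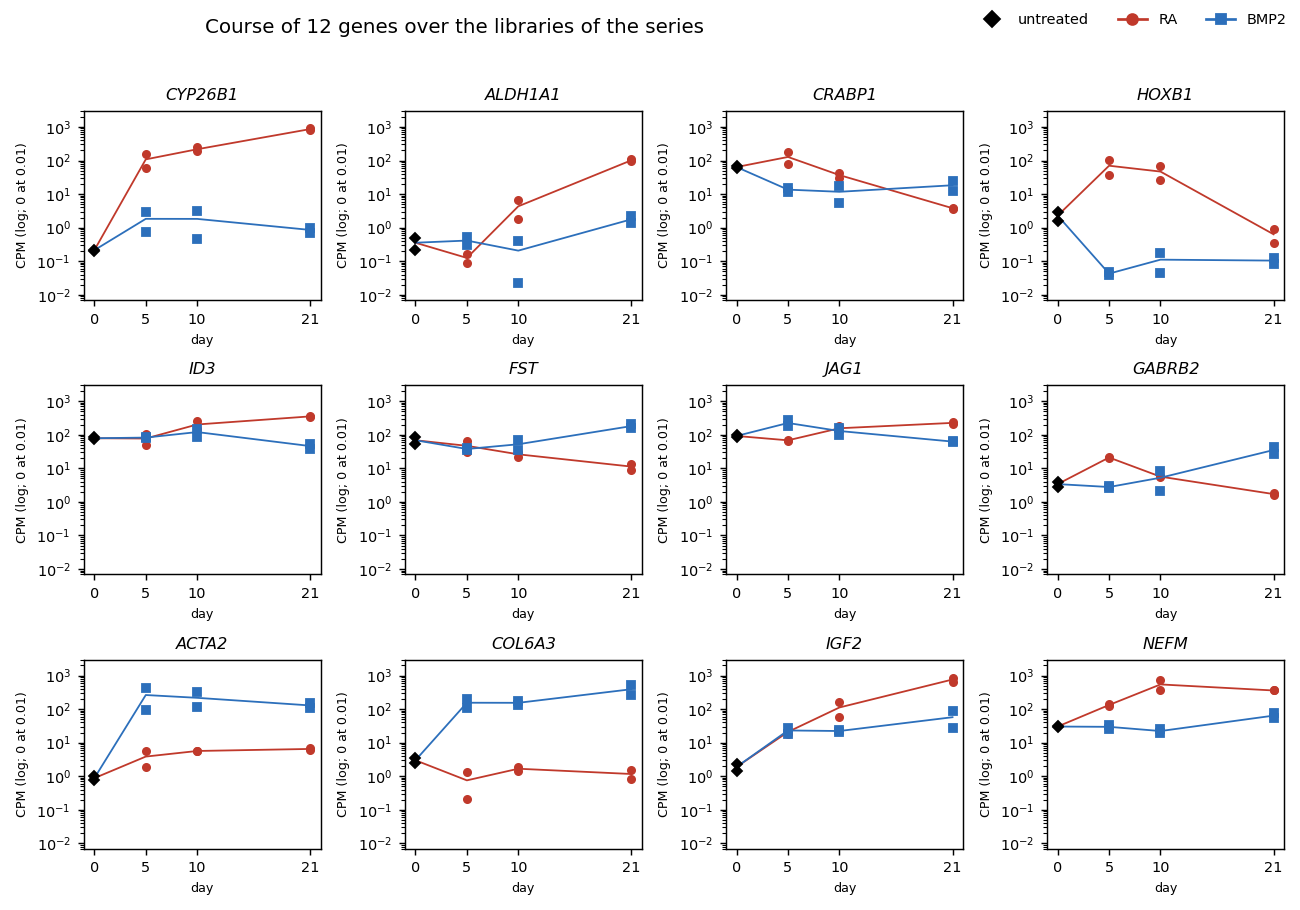
CPM on a log axis at days 0, 5, 10 and 21 in RA (circles), BMP2 (squares) and untreated cells (diamonds) for 12 genes; points are single libraries, a library at 0 is drawn at 0.01, and lines join group means. JAG1 is lower in RA at day 5 and higher in RA at day 21, CRABP1 is higher in RA at day 5 and lower in RA at day 21, and CYP26B1 and COL6A3 keep 1 direction.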

How the data were processed

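RNA sequencing of 14 NT2 libraries was analysed from the deposited tables, of which 4 form the comparison of RA with BMP2 at day 21. One deposited table gives unnormalised counts for 25952 genes with Ensembl identifiers, and another gives their RPKM, which the authors scaled by gene length and library size. Per the submitters' processing notes, STAR, featureCounts, DESeq2 and build hg19 were used, without versions. Between 66.0% and 73.5% of counts from 1 to 19 in each library were even, so a read pair may give 2 counts, and counts are not fragments. Symbols came from a list of gene names (25214 identifiers) and GENCODE v29 (58); 680 had none.

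Counts were tested with edgeR 4.0.16 in R 4.3.3: 1 mean for each group, fitted to the 14 libraries together, with TMM scaling, the filterByExpr filter at 10 counts (19142 genes, 99.99% of counts), quasi-likelihood F tests and Benjamini-Hochberg adjustment over all genes, called under 0.05. Residual degrees of freedom were 7, prior ones 3.08, and the biological coefficient of variation was 0.368. The SE is the log2 fold change divided by the square root of F. The 42 lists hold 806 genes, 768 of them tested, and are described by counts of calls and medians. The members and lists were chosen with earlier results of these data known. Named were the 8 largest called changes in each direction of at least 5 CPM, up to 5 called and 3 other members of each list, the cell type markers, and the 5 largest called differences from day 5 in each direction. Chosen after their values were seen were ATCAY, BGN, BMP4, BMPR1A, CADM3, CDKN1A, CHRDL1, CHRNA3, COL1A2, COL4A1, CRABP1, CRABP2, CYP26A1, DDB2, FGFR1, FOXC1, FZD7, GABRB2, HOXA11, HOXC13, ID2, ITGA6, KIF21B, LIN28A, LOXL3, MFAP2, MSX1, NOTCH2, PLTP, POSTN, RARA, SLIT3, SPARC, WNT2B, XPC and ZEB2. Some genes that the rule names are not reported here, though the counts over lists include them. Where a group had no count, the fold is a bound taken from 3 counts in the group's libraries together. Groups with 1 to 3 counts are given as a ratio with a 95% exact interval; intervals and floors cover counting error only, and they take counts as independent, which a read pair giving 2 counts would break, so that intervals are then too narrow and bounds too high.

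In simulated data 49 genes were changed per fold, of 18707. The test found 49.0% of the 4-fold and 57.1% of the 8-fold changes, 0% of those of 1.5 and 2 times, and made 2 false calls. With so few genes changed, against 12.1% called at day 21, these rates need not hold in the data. Even changes of 8-fold can be missed. Replicate numbers were not taken as pairing libraries, since the labels do not say that equal numbers mark a shared culture. Other settings tried were RLE scaling, all genes unfiltered, CPM of at least 1 in 2 libraries, the compared libraries alone, DESeq2 1.42.0, a block for replicate number, a minimum change of 2 times, and each library left out. limma 3.58.1 was run on log2(RPKM + 1) and, with a pseudocount of 0.1, on the same 11641 genes that reached an RPKM of 0.5 in 2 libraries. A fit without both BMP2 day 10 libraries was also run, and limma on RPKM divided by TMM factors, the looser CArG box and the direct repeats were added after the data were seen. Promoters came from RefSeq on GRCh38.p14. Tables and figures were made with Python 3.11.15, pandas 2.3.3, NumPy 2.4.6 and matplotlib 3.10.9.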

Additional observations from a re-analysis of the deposited data

Results flagged for a closer look

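The difference between RA and BMP2 was itself tested between days, in libraries the comparisons do not share. It differed between days 21 and 5 for 314 genes and between days 21 and 10 for 29. The values below are fitted log2 differences (day 21 minus the earlier day), with a positive value where RA stood higher relative to BMP2 at day 21 than before.

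Relative to day 5, the difference was 10.59 for BARX2, 9.19 for CILP, 8.74 for ADCY8, 8.62 for OPCML (7.19 to 13.94 without 1 library) and 7.59 for ALDH1A1. CILP had no count in RA at day 5, so its value depends on the prior of the fit. The opposite side held ALDH1A3 at -9.45, LEFTY1 at -9.23, HTR1D at -8.92, HOXB1 at -8.03 and MMRN1 at -7.89. LEFTY1, an inhibitor of Nodal signals, and MMRN1, a platelet and endothelial protein, were under 1 CPM in each day 21 library. The difference was also called for genes of several pathways, CRABP1 at -5.50, FST at -4.32, JAG1 at 3.57, ID3 at 3.03, FGFR1 at -2.32 and GABRB2 at -7.28.

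Relative to day 10, the difference was -3.89 for CADM3, -5.33 for CHRNA3, a nicotinic receptor subunit, -4.20 for KIF21B and -4.26 for ATCAY. It was -2.50 for ITGA6, a laminin receptor, and -2.37 for PLTP, a phospholipid transfer protein. Of the values given here, CADM3 was called in each of the 14 fits without 1 library. JAG1, FGFR1, HTR1D and GABRB2 lost the call only without an RA day 21 library.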

How the results depend on the processing

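At day 21, 1146 genes were higher and 1162 lower in RA. Requiring at least a 2-fold change left 163 and 232. Only the 4 compared libraries gave 2513 and 2812, the fit without both BMP2 day 10 libraries 2053 and 2332, and DESeq2 1944 and 2232. limma gave 1886 and 658 on log2(RPKM + 1) and 1863 and 684 on log2(RPKM + 0.1). On RPKM divided by TMM factors it gave 1069 and 894 with a pseudocount of 1. RLE factors gave 1067 and 1245, and a filter of CPM of at least 1 gave 1245 and 1261. Leaving out 1 library gave 155 to 2070 higher and 134 to 2159 lower.

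The 314 differences between days 21 and 5 became 614 without the filter, 39 at 2-fold, 1265 with only the libraries compared, 1541 without both BMP2 day 10 libraries, 1831 in DESeq2, 685 in limma on log2(RPKM + 1) and 548 with TMM factors, and 3 to 1509 without 1 library. The 29 between days 21 and 10 became 118, 2 and 3 under the first 3 of these settings. They became 651 in DESeq2 and 2 to 747 without 1 library. With a pseudocount of 1, limma gave 175, and 165 with TMM factors. With a pseudocount of 0.1 it gave 34, and 35 with TMM factors. For the differences between days 21 and 5, limma with a pseudocount of 0.1 gave 390, and 283 with TMM factors. The 2338 calls at day 5 became 483 at 2-fold, 4288 without both BMP2 day 10 libraries, 4146 in DESeq2 and 502 to 4221 without 1 library. The 2075 at day 10 became 365 at 2-fold, 9 with only the libraries compared, 3930 in DESeq2 and 619 to 4435 without 1 library. In limma with TMM factors they became 1337 with a pseudocount of 1 and 1502 with 0.1. Without TMM factors they became 1867 with a pseudocount of 1 and 1887 with 0.1. With the replicate block, 1012 genes were higher and 1007 lower at day 21, 258 differed from day 5 and 12 from day 10. The numbers were not taken as pairing, since the labels do not say that they mark shared cultures. Deviations of same-numbered RA and BMP2 day 21 libraries correlated at 0.0637, which cannot settle whether they were paired. Of the genes named in the text and tried under these settings, none changed sign while called. Lists were compared between settings by their counts of calls only. The causes of these shifts were not tested. In simulated data the test found 0% of 2-fold and 49.0% of 4-fold changes. Far fewer genes were changed there than the 12.1% called at day 21, so these rates need not hold in the data. A gene that was not called may still differ.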

Other observations

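Some lists not described above also held called genes at day 21. In neural crest and melanocyte genes, 4 of 15 tested members fell and these were the only ones called (median log2 fold change 0.18 over the list). Without 1 library, 0 to 6 fell. In trophoblast and amnion genes, 4 of 14 tested members fell and these were the only ones called (median log2 fold change -0.60 over the list). Without 1 library, 0 to 5 fell, while the 3 trophoblast markers in the table summed to 19 to 20.1 CPM in RA and 9.89 to 13 CPM in BMP2. In the FGF pathway, 2 of 22 tested members rose and 4 fell (median log2 fold change 0.00 over the list). Without 1 library, 0 to 3 rose and 0 to 6 fell. In endoderm and liver genes, 2 of 15 tested members rose and 1 fell (median log2 fold change -1.72 over the list). Without 1 library, 1 to 2 rose and 0 to 3 fell, with the endoderm markers at 0.377 to 0.687 CPM in RA and 2.13 to 3.23 CPM in BMP2. In TGF-beta pathway genes, 1 of 16 tested members fell and it was the only one called (median log2 fold change -1.19 over the list). Without 1 library, 0 to 7 fell, and the share of 6.25% with all libraries is close to the 6.07% of all genes called lower. In the FGF and endoderm lists, 9.09% and 13.3% rose and 18.2% and 6.67% fell, against 5.99% and 6.07% of all genes. In the neural crest and trophoblast lists, 26.7% and 28.6% fell, against the same 6.07%.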
